A study of Drosophila melanogaster with 12 samples.

Results

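Chromatin was examined at 6 genes of fatty acid synthesis in Drosophila melanogaster: ACC, FASN1, FASN2, Desat1, Acsl and SREBP. A deposited ATAC-seq region counted as a member region when it overlapped the Release 6 span of one of these genes or lay within 1000 bp of it. This gave 9 regions of 6353 in all, namely 1 of the 3447 labelled fat body and 8 of the 2906 labelled gut. In ATAC-seq the Tn5 transposase cuts and tags DNA that it can reach, so a region with many reads is open chromatin.

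All libraries came from mated adult females of the genotype S106 UAS-foxo, in 4 groups of 3 libraries: switched fat body, control fat body, switched gut and control gut. Switched flies had 200 µM RU486 in their food over 21 days and were then kept without it for 7 days, while control flies received no RU486. S106 is a GeneSwitch driver, known for activity in the adult fat body and gut, that RU486 turns on, and UAS-foxo then supplies the transcription factor foxo, which insulin signalling restrains. Both transgenes were present in every group and none received RU486 without UAS-foxo, so effects of the drug and of past foxo expression cannot be told apart. The question of the comparison was whether past foxo expression left a mark on chromatin. The labels do not say that replicates were separate cultures or how many flies a library pooled, so p-values measure only the spread between these libraries, which may be technical.

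In fatty acid synthesis, ACC, acetyl-CoA carboxylase, makes malonyl-CoA from acetyl-CoA, and the fatty acid synthases FASN1 and FASN2 extend it to a saturated chain. Desat1 is the main stearoyl-CoA desaturase of the fly, and Acsl, a long-chain acyl-CoA synthetase, joins free fatty acids to coenzyme A for use in lipids or for oxidation. SREBP is a membrane-bound transcription factor that is released by cleavage and activates genes of this pathway. The fat body is the main site of fatty acid synthesis and storage in the adult fly, and oenocytes use FASN2 to make precursors of cuticular hydrocarbons.

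Library totals here are counts within the deposited regions and not sequencing depth. These totals ran from 811020 to 977245 counts in switched and from 1053117 to 1186153 in control libraries labelled fat body. They ran from 99191 to 709659 in switched and from 111244 to 654180 in control libraries labelled gut. Both libraries numbered 1 were the shallow ones there. They also differed in composition, with 28.7% (switched) and 30.8% (control) of nuclear counts on the Y or unplaced scaffolds. This share was 3.76% to 6.32% in the other libraries labelled gut and 24.2% to 43.0% in those labelled fat body. Its part in the member values was not tested. Mitochondrial regions held 69.2% to 88.6% of the counts of a library within these regions. Chromosome arms held 15803 to 148529 counts. Markers went against the tissue labels: 3 of 10 fat body markers and 8 of 13 gut markers had a region labelled fat body, against 7 and 0 with a region labelled gut. Regions labelled gut covered the yolk protein genes Yp1 and Yp3, apolpp and Lsd-1, and 4 of 5 oenocyte markers. Tissue names below are for this reason given as labels only.

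All 6 genes had a region in the table labelled gut, while Acsl alone was also represented in the one labelled fat body. Among the 2299 protein-coding genes with spans in the members' range of 5045 to 17748 bp, 29.1% had a region in the table labelled gut and 14% in the table labelled fat body. No member region of the table labelled gut overlapped a region of the other table. Of all 2292 regions on chromosome arms of the table labelled gut, 399 did. With 8 member regions, the absence of an overlap cannot be told from that share. The region nearest to Desat1 in the table labelled fat body lay 6132 bp beyond the gene, and those nearest to FASN2, FASN1, ACC and SREBP lay 26298, 38949, 67312 and 160791 bp beyond them. Counts of the libraries labelled fat body at the positions open in the table labelled gut were not analysed here.

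The regions lay at different places in their genes, and 8 of the 9 fell inside the gene span. The region of ACC (chr2R:7987154-7987467) covered 314 bp at 74.3% of the span, counted from its low-coordinate end. The region of FASN1 (chr2L:3060344-3060541) lay at 33.2% and that of FASN2 (chr2L:3044951-3045096) at 8.83% of the span. These 2 synthase genes are neighbours whose spans end and start 455 bp apart, but each region was within 1000 bp of its own gene alone. The region of Desat1 (chr3R:12441267-12441576) covered 310 bp at 22.7% of the span. SREBP had its region (chr3L:19794279-19794491) with the midpoint 450 bp inside the low-coordinate end.

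Acsl had 3 regions in the table labelled gut. Region 1 (chr2R:8671439-8671546) lay at 33% and region 2 (chr2R:8676185-8676363) at 60.8% of the span. Region 3 (chr2R:8683161-8683334) lay 139 bp beyond the high-coordinate end and overlapped the transfer RNA gene tRNA:Leu-CAG-1-1, so its counts cannot be assigned to Acsl alone. The Acsl region of the table labelled fat body (chr2R:8668899-8668986) was 88 bp long and lay at 18.2% of the span. The gene table holds no strand and no exons, so start sites, exons and introns were not assigned. Of the 8 member regions labelled gut, 2 (SREBP and Acsl region 3) were centred no more than 500 bp from where a protein-coding gene begins or ends, while 44.7% of all regions on chromosome arms of that table did.

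**Figure D1:**
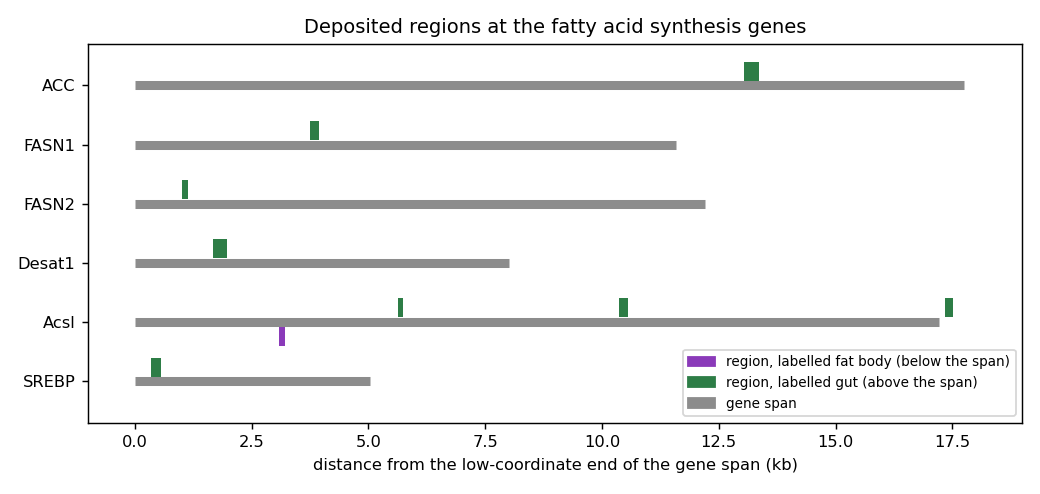
Regions at the 6 genes, drawn to scale as distance in kb from the low-coordinate end of each gene span (grey bar). Regions of the table labelled fat body lie below the span and those of the table labelled gut above it; Acsl has 1 below and 3 above, and its region 3 lies past the end of the span.

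Member regions of the table labelled gut differed in length and coverage. ACC and Desat1 had regions longer than 89.3% and 88.7% of the regions on chromosome arms, whose median was 144 bp. Desat1, FASN1 and ACC had summed counts above 97.1%, 94.3% and 92.4% of these regions. SREBP and Acsl region 3 were above 53.4% and 40.8%, and Acsl region 1, which was longer than 20% of the regions, had the lowest counts of the 8, above 30.3%. All 8 passed the filter on low counts, as did the Acsl region labelled fat body.

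Levels were compared between genes as normalised counts (CPM, counts scaled to library size with trimmed-mean factors) per kb of region. In switched libraries labelled gut the order by mean was FASN2, FASN1, Desat1, ACC, SREBP and Acsl regions 1, 2 and 3, from 933 ± 594 down to 68.5 ± 119 CPM per kb (SD, n = 3). In control libraries FASN1 was highest at 1148 ± 122 CPM per kb, ahead of Desat1 at 710 ± 740 and ACC at 589 ± 111, and SREBP was lowest at 123 ± 117 (SD, n = 3 each). Every neighbouring pair in either order overlapped between its libraries. The control libraries agreed closely at FASN1 (1033 to 1277 CPM per kb) and ACC (464 to 677 CPM per kb), whereas Desat1 ranged from 0 to 1477.

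No member region passed the test of switched against control in the libraries labelled gut. With edgeR's quasi-likelihood test, at a threshold of 0.05 on the Benjamini-Hochberg adjusted p, 0 of 1944 regions were called (0%), and 0 of the 8 at the members. Without adjustment 31 regions had a p under 0.05 (1.59%), none of them a member, and DESeq2 called 0 of 1935 (0%). Each member region had an edgeR adjusted p near 1. In these bulk libraries a change in the share of a cell type and a change in openness per cell cannot be told apart. Of the 8, 3 had a log2 fold change above 0, while 40.9% of all tested regions did. Their median was -0.26, against -0.23 over all tested regions. Across the libraries left out in turn this median ran from -0.53 to 0.37, with values above 0 without switched replicate 1 (0.13) and without control replicate 3 (0.37).

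ACC, which makes the malonyl-CoA for chain growth, had 14, 117 and 63 counts in switched and 34, 72 and 85 in control replicates 1 to 3 labelled gut. As normalised counts these were 145 ± 55.7 CPM in switched and 185 ± 34.8 CPM in control libraries (SD, n = 3 each). The groups overlapped, and the shallow switched replicate 1 was the lowest of the 6 at 81.0 CPM. This gave a log2 fold change of -0.34 ± 0.99 (SE; n = 3 each), with a 95% interval from -2.39 to 1.71. ACC was read in all 6 libraries, and 96.7% of the tested regions had a higher dispersion between libraries. Leaving out single libraries gave log2 fold changes from -0.55 (without switched replicate 2) to -0.02 (without switched replicate 1).

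FASN1, the synthase of the fat body, had 0, 85 and 98 counts in switched and 39, 101 and 101 in control replicates. Its levels were 0, 132 and 268 CPM in switched and 225, 205 and 253 CPM in control libraries, so that the groups overlapped through switched replicate 3. The 0 of the shallow switched replicate 1 allows up to 17.4 CPM (3 counts, counting error only), below every other library. FASN1 thus had a log2 fold change of -0.75 ± 1.16 (SE; 95% interval -3.17 to 1.66), and it was -0.15 without switched replicate 1, -1.67 without switched replicate 3 and -1.54 with the replicate number as a block.

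FASN2, the synthase gene beside FASN1, had 13, 63 and 86 counts in switched and 0, 44 and 16 in control replicates, or 75.2, 98.0 and 236 CPM against 0, 89.1 and 40.0 CPM. The groups overlapped only through switched replicate 1 and control replicate 2, and they did not overlap when counts were divided by library totals or by counts on chromosome arms. The 0 of control replicate 1 allows up to 17.3 CPM. In edgeR the log2 fold change was 1.63 ± 1.45 (SE; 95% interval -1.39 to 4.64). Single libraries moved this value: omitting switched replicate 3 gave 0.93, omitting control replicate 1 gave 1.07 and omitting control replicate 2 gave 2.65. Blocking on the replicate number gave 2.34. Summed counts at oenocyte markers held 0.380% to 0.862% of the counts on chromosome arms in switched and 0.434% to 0.733% in control libraries. These ranges overlapped, and the part of oenocytes in the FASN2 value was not tested.

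Desat1, the desaturase, had the highest summed count of the 8 regions, with 9, 163 and 102 counts in switched and 0, 100 and 183 in control replicates. Normalised, these were 52.1, 253 and 279 CPM in switched and 0, 203 and 458 CPM in control libraries. Both shallow libraries were the lowest of their group, and the groups overlapped. The log2 fold change of -0.18 ± 1.19 (SE; 95% interval -2.65 to 2.30) changed sign without switched replicate 1 (0.28). It did so too with the replicate number as a block (0.77) and with control replicate 3 left out (0.91).

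**Figure D2:**
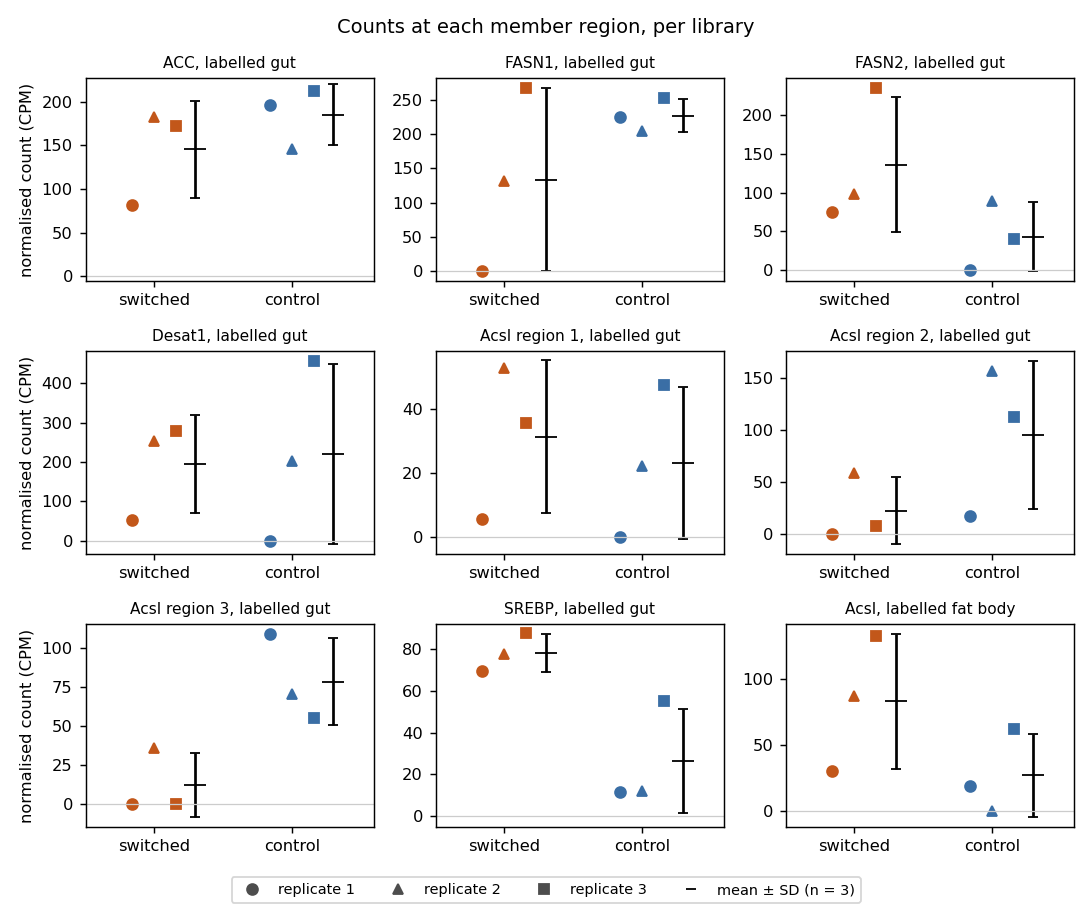
Normalised counts (CPM) at each member region, with switched libraries left of control libraries; symbols mark replicates 1 to 3, and the bar beside them is the mean ± SD (n = 3). The groups overlap in 7 of 9 panels. SREBP lies higher and Acsl region 3 lower in all 3 switched libraries labelled gut. Of all tested regions, 10.8% labelled gut and 16.2% labelled fat body had groups that did not overlap.

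SREBP, the transcription factor of the pathway, had 12, 50 and 32 counts in switched and 2, 6 and 22 in control replicates labelled gut. Its levels were 69.5, 77.7 and 87.6 CPM in switched and 11.5, 12.2 and 55.1 CPM in control libraries. Every switched library lay above every control library, also per library total and per count on chromosome arms. SREBP had a log2 fold change of 1.55 ± 1.64 (SE; 95% interval -1.84 to 4.95), and its adjusted p from edgeR was near 1. Control replicate 3 stood closest to the switched libraries, and without it the log2 fold change was 2.71; leaving out other single libraries gave values down to 1.17, the one without control replicate 2.

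Acsl, which activates long-chain fatty acids, had 3 regions with differing values. Region 1 had 1, 34 and 13 counts in switched and 0, 11 and 19 in control replicates, with a log2 fold change of 0.42 ± 1.79 (SE) that turned to -0.16 without switched replicate 2 and -0.12 without control replicate 1. Region 2 had 0, 38 and 3 counts in switched and 3, 77 and 45 in control replicates, or 0, 59.1 and 8.22 CPM against 17.3, 156 and 113 CPM. Its log2 fold change was -2.02 ± 1.72 (SE), and switched replicate 2 overlapped the control libraries. Without that library it was -4.27, and with the replicate number as a block -2.89. Region 3, at the transfer RNA gene, had 0, 23 and 0 counts in switched and 19, 35 and 22 in control replicates. Here every switched library lay below every control library, at 0, 35.8 and 0 CPM against 110, 70.9 and 55.1 CPM, under each of the 3 scalings. Region 3 had a log2 fold change of -2.59 ± 1.95 (SE, 95% interval -6.63 to 1.45) and -4.39 with the block. The 0 counts of switched replicates 1 and 3 allow up to 17.4 and 8.22 CPM. Without switched replicate 2, the only switched library with reads, the value was -7.65 ± 3.08 (SE). That fit sets 0 switched counts against the control counts, so its size is not a measured ratio.

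The 3 Acsl regions were also summed, region 3 at the transfer RNA gene included. Switched libraries then had 1, 95 and 16 counts and control libraries 22, 123 and 86. Over this sum the log2 fold change was -1.54 ± 1.01 (SE), at an adjusted p of 0.995 from edgeR over 1401 genes. It ran from -2.83 without switched replicate 2 to -1.06 without switched replicate 1, and was -2.16 with the block. Groups that did not overlap in CPM were thus found at 2 of the 8 member regions, SREBP and Acsl region 3, against 10.8% of all tested regions of the table. Per library total or per count on chromosome arms FASN2 joined them, against 11.7% and 11.6% of all tested regions. Haemocyte markers also separated the groups labelled gut, at 0.103% to 0.158% of the counts on chromosome arms in switched and 0.169% to 0.270% in control libraries, from regions at 2 of 6 markers (NimC1 and Col4a1; Hml, eater, He and Pxn had none). Their part in the member values was not tested.

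**Figure D3:**
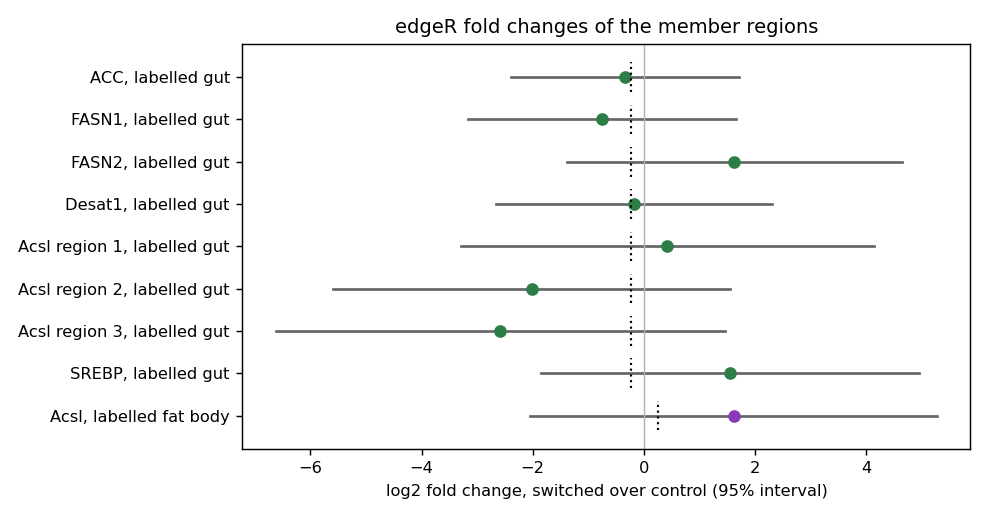
Log2 fold changes of switched over control with 95% intervals for each member region, from edgeR; the dotted mark in each row is the median of all tested regions of that table (-0.23 labelled gut, 0.25 labelled fat body). All 9 intervals include 0.

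Acsl was the member read in the libraries labelled fat body. Its region had 38, 80 and 171 counts in switched and 15, 0 and 69 in control replicates, or 30.4, 87.1 and 133 CPM against 19.1, 0 and 62.0 CPM. Switched libraries were higher on average, but switched replicate 1 lay below control replicate 3, so the groups overlapped. They also did per library total and per count on chromosome arms, while 16.2% of the tested regions had groups that did not overlap in CPM, 20.2% per library total and 17.2% per count on chromosome arms. The 0 of control replicate 2 allows up to 3.77 CPM. Acsl had a log2 fold change of 1.615 ± 1.64 here (SE; 95% interval -2.05 to 5.28; edgeR adjusted p = 0.984), and the value ran from 1.06 without control replicate 2 to 3.20 without control replicate 3. The edgeR test called 0 of 1674 regions of this table (0%), with 80 (4.78%) at an unadjusted p under 0.05, and DESeq2 called 53 of 1649 (3.21%), Acsl not among them.

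Scaling shifted the whole table labelled fat body. With library totals alone the median log2 fold change of all tested regions was 0.94 in place of 0.25, and that of the Acsl region 2.08. The mitochondrial share was 75.8% to 83.6% in switched and 84.4% to 88.6% in control libraries of this table. Haemocyte markers (eater and Col4a1 of 6) held 0.0796% to 0.0895% of the counts on chromosome arms in switched and 0% to 0.0231% in control libraries. Muscle markers (sls alone of 8) held 0.161% to 0.257% in switched and 0.0263% to 0.0949% in control libraries; of the 2 sls regions behind this share, 1 had a log2 fold change above 0 and 1 below. The part of these in the Acsl value was not tested.

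The effect at Acsl was set between the tissues with an interaction term over the 314 genes that had tested regions in both tables. The log2 fold change labelled fat body exceeded that labelled gut by 3.17 ± 1.99 (SE; edgeR adjusted p = 0.994), so no difference between the tissues was called. Over all these genes 2 were called (0.637%). The regions compared are not the same stretch of Acsl in the 2 tables, and the sum labelled gut included region 3 at the transfer RNA gene. With regions overlapping the gene alone the difference was 2.73 ± 2.13 (SE). ACC, FASN1, FASN2, Desat1 and SREBP had a region in 1 table only, and their effects could not be compared in this way.

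**Figure D4:**
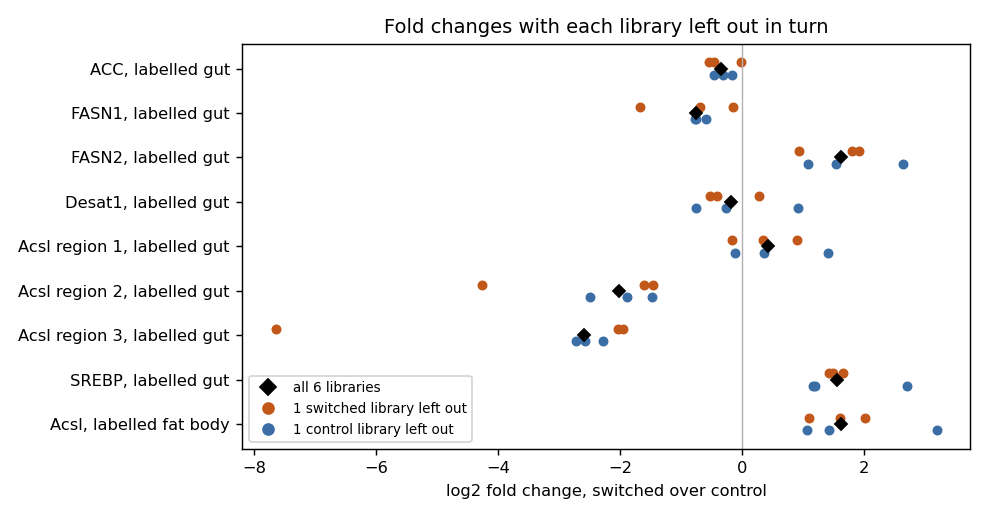
Log2 fold changes of switched over control from edgeR with all 6 libraries of a table (diamonds) and with 1 switched or 1 control library left out (circles). Desat1 and Acsl region 1 labelled gut lie on both sides of 0. The lowest circle, Acsl region 3 at -7.65, leaves out switched replicate 2 and so rests on 0 counts in the remaining switched libraries.

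The wider pathway was followed with a list of 56 further genes, from acetyl-CoA and NADPH supply to elongation and regulators. In the table labelled gut 24 of them had a region, with 35 tested regions, 15 above 0 and 20 below, 0 called and a median log2 fold change of -0.27 against -0.23 over all tested regions. In the table labelled fat body 10 of 56 had a region, with 16 tested regions, 9 above 0 and 7 below, 0 called and a median of 0.10 against 0.25. For comparison, 16.3% and 9.04% of all protein-coding genes had a region in these tables. These shares depend on span length: among genes with spans of 5045 to 17748 bp they were 29.1% and 14%. The list genes were not matched for span, so their shares cannot be read as an excess. In the table labelled gut 9 of 11 regulators and 5 of 6 supply genes had a region, the supply genes being ATPCL, the ATP citrate lyase that makes cytosolic acetyl-CoA, and Men, Zw, Pgd and Idh, whose enzymes form NADPH. Of 24 elongation genes 5 had a region there, and FASN3 had none in either table.

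Among the list genes with the most reads labelled gut, Mondo, a sugar-sensing transcription factor gene, was at -0.67 ± 1.14 (SE) in its best-read region, Hnf4, a nuclear receptor gene, at -0.23 ± 1.17, ATPCL at -0.35 ± 1.01 and the elongase-family gene CG31523 at 0.33 ± 0.98. The sugar-responsive factor gene sug was at -0.30 ± 1.09 and 0.78 ± 1.25 in its 2 best-read regions. In the libraries labelled fat body SNF4Agamma, a subunit gene of the energy sensor AMPK, was at 0.49 ± 0.74 in its best-read region, CG33110 at -0.54 ± 0.82 and sug at -0.56 ± 0.92. None passed the test.

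Of the 3 listed genes that process SREBP, 2 had a region labelled gut; they are named here after their values were seen. SCAP, the escort that carries SREBP to the Golgi, had 17, 31 and 57 counts in switched and 3, 14 and 0 in control replicates (log2 fold change 2.70 ± 1.76 (SE)). S2P, the protease that releases SREBP from the membrane, had 3, 20 and 70 counts in switched and 0, 1 and 7 in control replicates (3.49 ± 2.01). Neither passed the edgeR test, with adjusted p near 1, and S1P had no region. Most switched counts of S2P came from replicate 3, and its groups overlapped in CPM. Those of SCAP did not, as in 10.8% of all tested regions of the table. Together SCAP and S2P held 0.0386% to 0.189% of the counts on chromosome arms in switched and 0.00637% to 0.0158% in control libraries. Both genes were named after their values were seen, so this sum is not a further result. S2P alone of these had a region labelled fat body, at a log2 fold change of 0.11 ± 1.14 (SE).

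**Figure D5:**
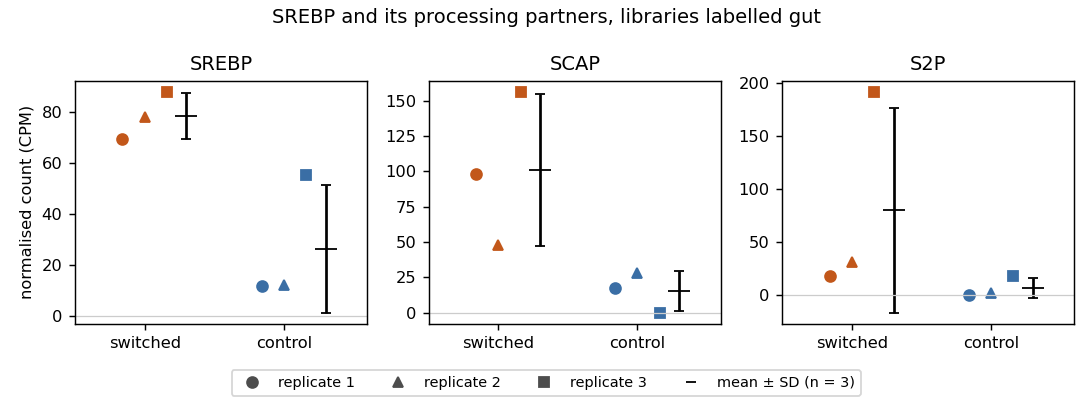
Normalised counts (CPM) at SREBP and at SCAP and S2P, which process it, in switched (left) and control (right) libraries labelled gut; symbols mark replicates and the bar is the mean ± SD (n = 3). All 3 switched libraries lie above all control libraries at SREBP and SCAP. Groups did not overlap, in either direction, at 10.8% of all tested regions of the table. At S2P switched replicate 1 (17.4 CPM) lies just below control replicate 3 (17.5 CPM).

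Desat1 was the best-read member, and the genes most like it across the 6 libraries labelled gut were Aldh-III, Tps1 and Ip6k. Their log2 CPM, centred on each region's own mean, differed from that of Desat1 by 0.44, 0.46 and 0.47 on average, against a median of 1.73 over 1944 regions. Each had 0 CPM in control replicate 1, as Desat1 did. For the Acsl region labelled fat body the nearest were CG9281, Ndg and UGP, at 0.38, 0.41 and 0.45 against a median of 1.94 over 1674 regions. All 3 had 0 CPM in control replicate 2, the library in which Acsl had none. In both tables the genes were picked on these same values, so the shared 0 is part of that choice and not a further result.

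The 1000 bp limit mattered for 1 region. Acsl region 3, 139 bp outside the gene, was the only member that did not overlap its gene. The regions just past the limit in the table labelled gut lay 1936 bp from FASN2, in CG17221, with 0, 28 and 27 counts in switched and 0, 47 and 20 in control replicates, and 2056 bp from SREBP, in CG42637 and Gyc76C, with 13, 20 and 17 counts in switched and 5, 18 and 14 in control replicates.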

How the data were processed

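The deposited values were raw read counts in 1 table per tissue, as the authors' key sheet names them. FastQC, Trimmomatic, MACS2, featureCounts and DESeq2 were used upstream, per the submitters' processing notes. Aligner, build, duplicate removal, Tn5 shift and peak pooling: not given in the sources used here. Regions were placed on RefSeq Release 6 gene spans on the strength of their position, as the build is not named, and no sequence was used.

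Sample titles gave the groups and replicate numbers. Each table was fitted whole with edgeR 4.0.16 in R 4.3.3 (TMM factors, filterByExpr at a count of 10 and a total of 15, quasi-likelihood F test, Benjamini-Hochberg adjusted p under 0.05). The filter kept 1674 and 1944 regions, with common dispersions of 1.40 (labelled fat body) and 1.38 (labelled gut). A standard error is the log2 fold change over the square root of F, and CPM uses the TMM factors. Its 95% interval uses the t distribution of the fit, while floors of 3 counts cover counting error only. The fit was also run on simulated counts that gave every region the common dispersion and held no pairing of libraries. Its behaviour under the regions' own spread was not tested. DESeq2 1.42.0 on the filtered regions left 25 and 9 adjusted p-values undefined. Every pair of libraries differed beyond counting noise.

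The members, gene lists and tests were chosen with earlier results of these data known. Named genes were the members, the list genes with the most reads (at most 10 per table) and the 3 genes most like the best-read member. SCAP, S2P, Idh, Zw, Pgd and FASN3 were named after their values were seen. The Hnf4 region of low unadjusted edgeR p was picked in the same way. All 56 list genes and all marker genes matched a RefSeq symbol or synonym. Same-numbered libraries labelled gut correlated in their deviations from group means at 0.299, 0.218 and 0.113, each over the bound of 0.1. Switched replicate 2 and control replicate 3 also passed it, at 0.128, so the bound did not separate same-numbered pairs from all others. The replicate number was therefore tried as a block, while the main fit held no block. This possible pairing comes from the data and not from the labels, and both libraries numbered 1 were shallow.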

Additional observations from a re-analysis of the deposited data

How the results depend on the processing

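Member regions called stayed at 0 in both tables under each alternative run: DESeq2, library totals alone, DESeq2 size factors in edgeR, chromosome arms alone, no filter on low counts, the replicate block, each library left out, regions overlapping the gene alone and sums per gene. Over all regions labelled fat body, DESeq2 called 53 and edgeR without a filter 19, against 0; labelled gut it was 0 throughout. The median log2 fold change of members labelled gut was 0.19 with the replicate block, and leaving out libraries gave -0.53 to 0.37. Desat1 turned to 0.77 with the replicate block, and ran from -0.75 to 0.91 as libraries were left out; Acsl region 1 ran from -0.16 to 1.41. The other 7 regions kept their sign, and the cause of the reversals was not tested. The interaction at Acsl ran from 2.61 to 4.75 as libraries were left out and was 4.58 with the replicate block. Without both shallow libraries labelled gut, an alternative chosen after seeing the data, no region was called, and SREBP was at 1.29 and Acsl region 3 at -1.76. Labelled fat body, same-numbered libraries did not pair (correlations of 0.00134, -0.0276 and -0.0661); with the replicate block 0 regions were called there and Acsl was at 2.33. The block changed no call in either table. The 95% intervals of the members spanned over 4 log2 units, so changes within them cannot be told from none in these libraries, whose common dispersions were 1.40 labelled fat body and 1.38 labelled gut.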

Other observations

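Hnf4, a nuclear receptor gene that fatty acids are known to regulate, had 3 regions in the table labelled gut that pointed different ways. One (chr2L:8700771-8700969) had 0, 13 and 0 counts in switched and 13, 113 and 129 in control replicates, with a log2 fold change of -4.70 ± 1.55 (SE), an unadjusted edgeR p of 0.00628 and an adjusted p of 0.855. It was the only one of the 35 tested list regions with an unadjusted p under 0.05, against 1.59% of all tested regions. It was picked for this p, and 1 region of 35 cannot be told from that share. The other two, in the same gene, were at -0.23 ± 1.17 and 1.12 ± 1.30.

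Idh, an isocitrate dehydrogenase gene that supplies NADPH, had 20, 92 and 34 counts in switched and 0, 11 and 0 in control replicates labelled gut, named after its values were seen. This was a log2 fold change of 3.81 ± 1.84 (SE), and edgeR's adjusted p was near 1. Every switched library lay above every control library, at 93.1 to 143 CPM against 0 to 22.3 CPM. Groups did not overlap, in either direction, at 10.8% of all tested regions of the table.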
